A study of Homo sapiens with 16 samples.

Results

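DNA mismatch repair was followed at the level of mRNA in H1299, a line grown from a human non-small cell lung carcinoma, after knockdown of YEATS2, a subunit of the ATAC histone acetyltransferase complex whose YEATS domain binds acetylated histone H3. The genes described are the 6 rows of the read count table that carry the symbols MSH6, MSH3, PMS2, PMS1, MLH3 and EXO1, of 12676 genes listed, and all 6 were measured well enough to be tested. They encode proteins linked to mismatch recognition, strand nicking and strand removal. They are called dedicated here because the replication enzymes that repair shares with DNA synthesis were kept as a separate list. The word does not mean that they act only in mismatch repair. The members were taken by symbol, but the members and lists were chosen with earlier results of these data known. The control cells (shNT) were infected with a pLKO lentivirus carrying a non-targeting shRNA, and the knockdown cells (shYEATS2) with a pLKO lentivirus carrying an shRNA against YEATS2. Both groups were exposed to virus with polybrene at 8 µg per ml, received puromycin at 2 µg per ml after 48 h, and were kept under selection for 4 to 7 days according to the labels. The study's methods give a shorter selection, so its length is not settled. Each group had 2 RNA-seq libraries. The labels give 1 cell line and no second shRNA for these libraries, and they do not say whether the replicates came from separate infections, so the p-values measure only the spread between these libraries.

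In mismatch repair, MutS homologs bind mispaired or looped-out bases, MutL homologs are recruited and cut the new strand, and an exonuclease removes the stretch that holds the error before it is copied again. MSH6 gives its complex a preference for base mismatches and short loops, and MSH3 gives its complex a preference for longer loops. Inherited loss of MSH6 or PMS2 is a known cause of Lynch syndrome, and tumours without the pathway accumulate errors in short repeats.

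Library depth, as the sum of reads over the table, was 35572458 and 34718921 for shNT and 35665956 and 39417787 for shYEATS2. Levels are given as scaled counts, which are reads divided by each library's TMM-scaled size and multiplied by the mean such size of the 4 libraries. YEATS2 itself was read at 4482 and 4104 scaled counts in the control libraries and at 665 and 673 in the knockdown libraries. It fell by 2.68 on the log2 scale (SE 0.10, FDR 0.000583), so the labels and the targeted gene go the same way. A change was called at an FDR under 0.01, where the FDR is the p from the quasi-likelihood test of edgeR, adjusted by the Benjamini-Hochberg method over all 12676 genes. KRT8, KRT18 and VIM were abundant, KRT7 was low, and PTPRC, CD3E, CD14, PECAM1, CDH5 and ALB, markers of blood, endothelial and liver cells, are not among the listed genes, each of which had over 100 reads in at least 1 library. In bulk RNA, fewer cells that express a gene and less RNA of it per cell cannot be told apart.

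Of the 6 mismatch repair genes, MSH6, PMS1 and EXO1 fell after YEATS2 knockdown, none rose, and MSH3, PMS2 and MLH3 did not pass the test. Over all genes tested, 12.5% were called lower and 12.9% were called higher. The 3 lower genes were also the ones with an unadjusted p under 0.05, which 56.5% of all genes had, and exactTest, DESeq2 and limma-voom likewise called 0 of the 6 higher. The 6 genes had a median log2 fold change of -0.32, and all genes together one of -0.0019. By edgeR's exactTest, the function named in the study's methods, the same 3 genes were called lower, against 19.7% of all genes (2493). The study reports fewer genes lower at the same FDR, so its own comparison was not reproduced. Each of the 3 lower calls was lost without at least 1 of the libraries: only PMS1 was called without shNT replicate 1, only EXO1 without shNT replicate 2 and only EXO1 without shYEATS2 replicate 2, while all 3 were called without shYEATS2 replicate 1. With library sizes taken as total counts in the quasi-likelihood test, PMS1 missed the threshold with an FDR of 0.0105 and 2 genes were called.

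**Figure D1:**
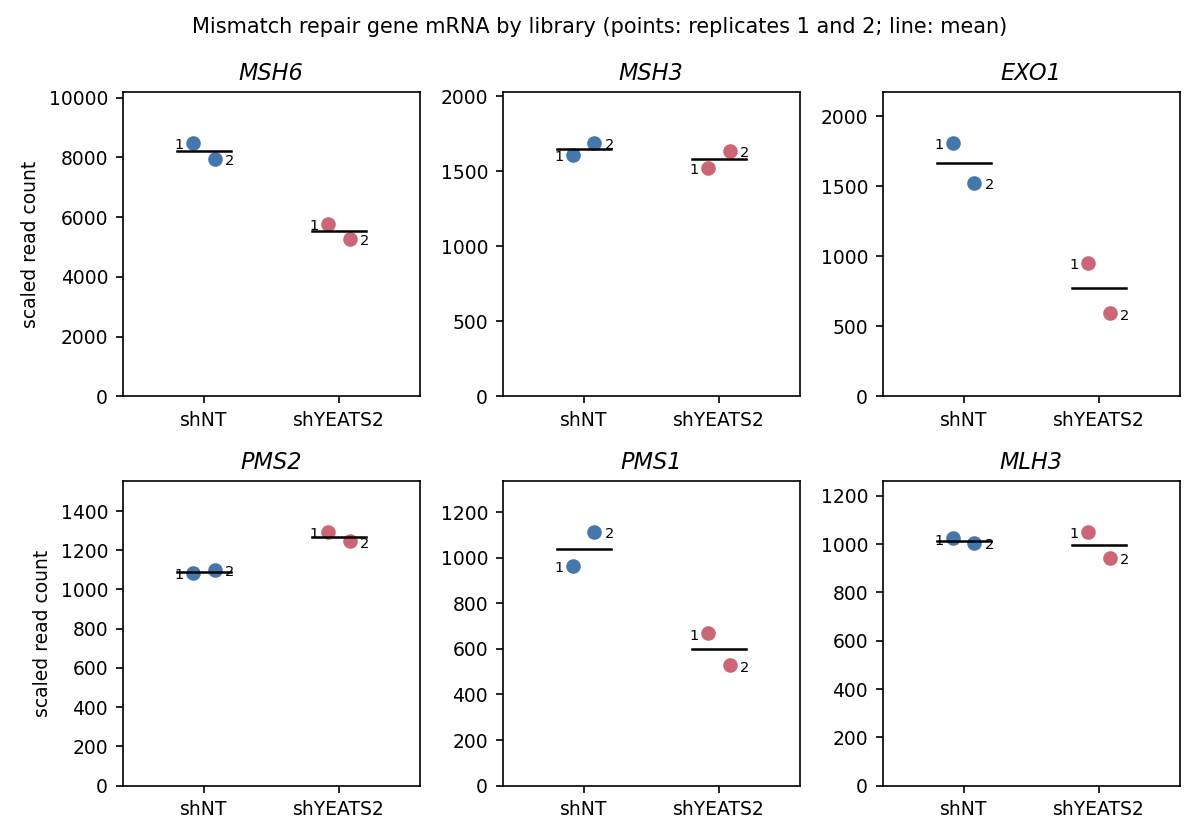
Scaled read counts (vertical axes, each starting at 0) of the 6 mismatch repair genes in the 2 control (shNT, blue) and 2 knockdown (shYEATS2, red) libraries, where each point is a library numbered by its replicate and each line is a group mean. The points of MSH6, PMS1 and EXO1 lie lower in both knockdown libraries than in either control, those of PMS2 lie higher, and those of MSH3 and MLH3 overlap.

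MSH6 (ENSG00000116062, GRCh37, chr2:48010284-48034092, plus strand, 10 exons) was the most abundant of the 6 genes. Its scaled counts were 8490 and 7960 in the control libraries and 5784 and 5283 in the knockdown libraries. The groups did not overlap, and the libraries of a group lay much closer to each other than to the other group. The mean went from 8225 ± 375 to 5534 ± 354 (SD, n = 2 each), which is 67.3% of the control mean. MSH6 fell by 0.57 on the log2 scale (SE 0.098, 95% confidence interval -0.81 to -0.34, FDR 0.00465). Its exons share 34 bases with exons of FBXO11 on the opposite strand, and the library kit did not mark strand, so the strand on which a read aligned in those bases does not tell which gene it came from. FBXO11 had a log2 fold change of 0.15 (FDR 0.296).

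MSH3 (ENSG00000113318, GRCh37, chr5:79950471-80172634, plus strand, 24 exons) was read at 1608 and 1690 scaled counts in the control libraries and at 1523 and 1636 in the knockdown libraries. The second knockdown library lay between the 2 controls. The means were 1649 ± 58.4 and 1579 ± 79.6 (SD, n = 2 each), and the log2 fold change was -0.06 (SE 0.096, 95% confidence interval -0.29 to 0.17, FDR 0.616). The 2 MutS homologs were then compared within each library. The ratio of MSH3 to MSH6 scaled counts was 0.189 and 0.212 in the controls and 0.263 and 0.310 in the knockdown. The ratio was higher in both knockdown libraries, by 0.51 on the log2 scale, with SDs of 0.12 in the controls and 0.17 in the knockdown. A two-sided exact permutation test gave p = 0.333, the smallest value that 2 libraries against 2 allow, so this difference could not pass 0.05 by that test.

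MSH5, a MutS homolog that acts in meiotic recombination and not in mismatch repair, is listed at 173 and 192 scaled counts in the controls and 97.3 and 61.9 in the knockdown. Its log2 fold change was -1.20 (SE 0.26, FDR 0.0101), just outside the threshold, and it was called under 10 of the alternatives, one of them the looser FDR of 0.05. MSH4, its meiotic partner, is not among the listed genes.

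The MutL homologs did not move together. PMS2 carries the nuclease that nicks the strand to be repaired, MLH3 belongs to a nuclease complex best known from meiotic crossing over and repeat instability, and the part PMS1 plays in repair is less clear. PMS1 was the one called lower.

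PMS1 (ENSG00000064933, GRCh37, chr2:190649176-190742355, plus strand, 13 exons) had scaled counts of 963 and 1113 in the control libraries and 668 and 528 in the knockdown libraries. Both knockdown libraries lay under both controls. The mean went from 1038 ± 106 to 598 ± 99.2 (SD, n = 2 each), or 57.6% of the control mean. PMS1 fell by 0.80 on the log2 scale (SE 0.15, 95% confidence interval -1.15 to -0.44, FDR 0.00642).

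PMS2 (ENSG00000122512, GRCh37, chr7:6010556-6048680, minus strand, 15 exons) had scaled counts of 1084 and 1099 in the control libraries and 1293 and 1245 in the knockdown libraries. Both knockdown libraries lay above both controls, a pattern shared by 39.7% of all genes. The means were 1091 ± 10.9 and 1269 ± 34.1 (SD, n = 2 each), and the log2 fold change was 0.22 (SE 0.098, 95% confidence interval -0.02 to 0.45, FDR 0.107). PMS2 has near-identical pseudogenes, and counting can split or drop reads between the copies, so its level is uncertain. The 5 listed copies had log2 fold changes of 0.47 (PMS2CL), -0.30 (PMS2P1), 0.74 (PMS2P3), 0.82 (PMS2P4) and 0.35 (PMS2P5), and none passed an FDR of 0.01, although 4 of the 5 had an unadjusted p under 0.05, as did 56.5% of all genes. Their part in the PMS2 value was not tested.

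MLH3 (ENSG00000119684, GRCh37, chr14:75480478-75518170, minus strand, 13 exons) had scaled counts of 1024 and 1006 in the control libraries and 1050 and 942 in the knockdown libraries. The knockdown libraries lay on either side of the controls. The means were 1015 ± 13.2 and 996 ± 76.3 (SD, n = 2 each), and the log2 fold change was -0.03 (SE 0.11, 95% confidence interval -0.29 to 0.23, FDR 0.852).

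The MutL homologs were also compared within each library. There were 0.889 and 1.01 PMS1 reads per PMS2 read in the controls and 0.517 and 0.424 in the knockdown, a difference of -1.02 on the log2 scale (SDs 0.13 and 0.20). The MLH3 to PMS2 ratio was 0.945 and 0.915 in the controls and 0.812 and 0.757 in the knockdown, a difference of -0.25 (SDs 0.033 and 0.072). Neither pair of groups overlapped, and the exact permutation p was 0.333 for each, again the smallest possible. Of the 12676 single genes, only 2590 overlapped between the groups, and the share among ratios was not computed.

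EXO1 (ENSG00000174371, GRCh37, chr1:242011506-242053241, plus strand, 16 exons), the exonuclease that degrades the nicked strand, had the lowest log2 fold change of the 6 genes. Its scaled counts were 1811 and 1526 in the control libraries and 953 and 592 in the knockdown libraries. Both knockdown libraries lay under both controls, and they differed from each other more, relative to their mean, than did those of any other member. The mean went from 1669 ± 201 to 773 ± 255 (SD, n = 2 each), or 46.3% of the control mean. EXO1 fell by 1.11 on the log2 scale (SE 0.22, 95% confidence interval -1.63 to -0.59, FDR 0.00739).

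By library order alone, 3 of the 6 genes were lower in both knockdown libraries than in either control, as were 39.8% of all genes, and 1 was higher. Ranked by log2 fold change from the lowest of all genes, EXO1 stood at percentile 3.72, PMS1 at 8.36 and MSH6 at 14.6. MSH3 stood at percentile 45.3, MLH3 at 48.1 and PMS2 at 65.4, so these 3 lay near the middle of all genes.

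Levels of different genes were compared after division by the length of the canonical transcript. In the control libraries, MSH6 had a mean of 1929 scaled counts per kb, EXO1 484, MSH3 371, PMS1 329, PMS2 214 and MLH3 130, and no neighbours in this order overlapped between libraries. In the knockdown libraries, the means per kb were 1298 for MSH6, 355 for MSH3, 249 for PMS2, 224 for EXO1, 189 for PMS1 and 127 for MLH3. EXO1 went from the second to the fourth place, and its knockdown libraries, at 276 and 172 per kb, spanned those of PMS2 and overlapped those of PMS1. MSH6 stayed the highest and MLH3 the lowest in both groups.

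The promoters of the 3 genes that fell are shown for their bases around the transcription start, since S-phase genes are known to be driven by E2F factors that bind there. The sequences are from RefSeq on GRCh38.p14, which has an entry for all 6 members, and run from 250 bases before the start through 50 bases from the start on. Capitals mark the E2F words searched, TTTGGCGC, TTTCCCGC, TTTCGCGC and TTTGCCGC, on both strands. The MSH6 window is chr2:47782895-47783194, plus strand, the EXO1 window chr1:241847954-241848253, plus strand, and the PMS1 window chr2:189784200-189784499, plus strand.
MSH6: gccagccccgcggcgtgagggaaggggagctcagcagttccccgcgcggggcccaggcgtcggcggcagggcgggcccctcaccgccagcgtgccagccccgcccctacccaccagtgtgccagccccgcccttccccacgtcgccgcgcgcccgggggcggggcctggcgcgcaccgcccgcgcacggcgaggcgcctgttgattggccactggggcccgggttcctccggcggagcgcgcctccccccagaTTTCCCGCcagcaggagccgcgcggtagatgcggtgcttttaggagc
EXO1: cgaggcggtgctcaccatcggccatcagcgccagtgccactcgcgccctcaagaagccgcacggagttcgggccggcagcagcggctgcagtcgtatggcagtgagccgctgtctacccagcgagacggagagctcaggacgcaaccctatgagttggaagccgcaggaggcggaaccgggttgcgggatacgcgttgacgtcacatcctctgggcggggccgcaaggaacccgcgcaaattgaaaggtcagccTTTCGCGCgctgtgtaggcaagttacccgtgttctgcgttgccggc
PMS1: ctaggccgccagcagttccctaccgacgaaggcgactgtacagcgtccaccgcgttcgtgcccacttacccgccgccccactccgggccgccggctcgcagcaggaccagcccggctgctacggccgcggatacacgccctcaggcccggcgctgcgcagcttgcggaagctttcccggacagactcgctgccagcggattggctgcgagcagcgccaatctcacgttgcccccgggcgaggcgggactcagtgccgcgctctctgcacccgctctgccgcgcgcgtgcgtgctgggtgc

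With the start base as position 0, MSH6 holds TTTCCCGC at positions 3 to 10 and EXO1 holds TTTCGCGC at positions 4 to 11, both just after the start. MSH3 holds TTTGGCGC at positions -107 to -100 and, on the other strand, TTTCGCGC at positions -103 to -96, so that the words overlap. PMS2 holds TTTGCCGC at positions -43 to -36, and no such word is in the PMS1 and MLH3 windows. The words are in 3.33% of the 27305 promoter windows of the same length. They are thus in 2 of the 3 genes that fell and in 2 of the 3 that did not pass the test. The CCAAT box (CCAAT, either strand, in 35.7% of windows) is in the MSH6, PMS1 and PMS2 windows, and the cell-cycle element CHR (TTTGAA or TTCGAA, in 16.6%) is in none of the 6. A match describes letters and does not show that a factor binds.

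Mismatch repair finishes with enzymes of DNA replication, and most of these were lower after knockdown. Of 16 shared factors on the list (PCNA, RFC1 to RFC5, RPA1 to RPA4, SSBP1, POLD1 to POLD4 and LIG1), 15 are in the table, since RPA4 is not among the listed genes. Of these, 10 fell, against 12.5% of all genes called lower. By the quasi-likelihood test none rose, and 5 did not pass. All 15 had an unadjusted p under 0.05, against the 56.5% of all genes. Their median log2 fold change was -0.90, against -0.32 for the 6 dedicated genes. Of the 15, 14 were below 0, as were 6350 of all 12676 genes. The difference between the lists was not tested.

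PCNA, the sliding clamp that also activates the MutL nuclease, was read at 7863 and 7877 scaled counts in the controls and 3142 and 2071 in the knockdown. It fell by 1.59 on the log2 scale (SE 0.19, FDR 0.00158). All 5 subunits of the RFC clamp loader fell, with log2 fold changes from -1.92 (RFC3) to -0.59 (RFC1). RFC3 had scaled counts of 2767 and 2921 in the controls and 949 and 558 in the knockdown, the lowest log2 fold change of the list (FDR 0.00160).

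LIG1, the ligase that seals the repaired strand, fell by 1.38 on the log2 scale (FDR 0.00168). Of the polymerase delta subunits, the catalytic POLD1 (-0.89) and POLD3 (-0.91) fell, while POLD2 had a log2 fold change of -0.58 (FDR 0.0182). POLD4, the smallest subunit, was the one shared factor above 0, at 279 and 298 scaled counts in the controls and 396 and 411 in the knockdown, with a log2 fold change of 0.48 (FDR 0.0239). Under exactTest, POLD4 passed as higher. Of the subunits of RPA, which coats the single strand left by excision, RPA3 fell by 0.90, and RPA1 (-0.39, FDR 0.0115) and RPA2 (-0.55, FDR 0.0139) did not pass. SSBP1, the mitochondrial single-strand binding protein, had a log2 fold change of -0.23 (FDR 0.0821).

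**Figure D2:**
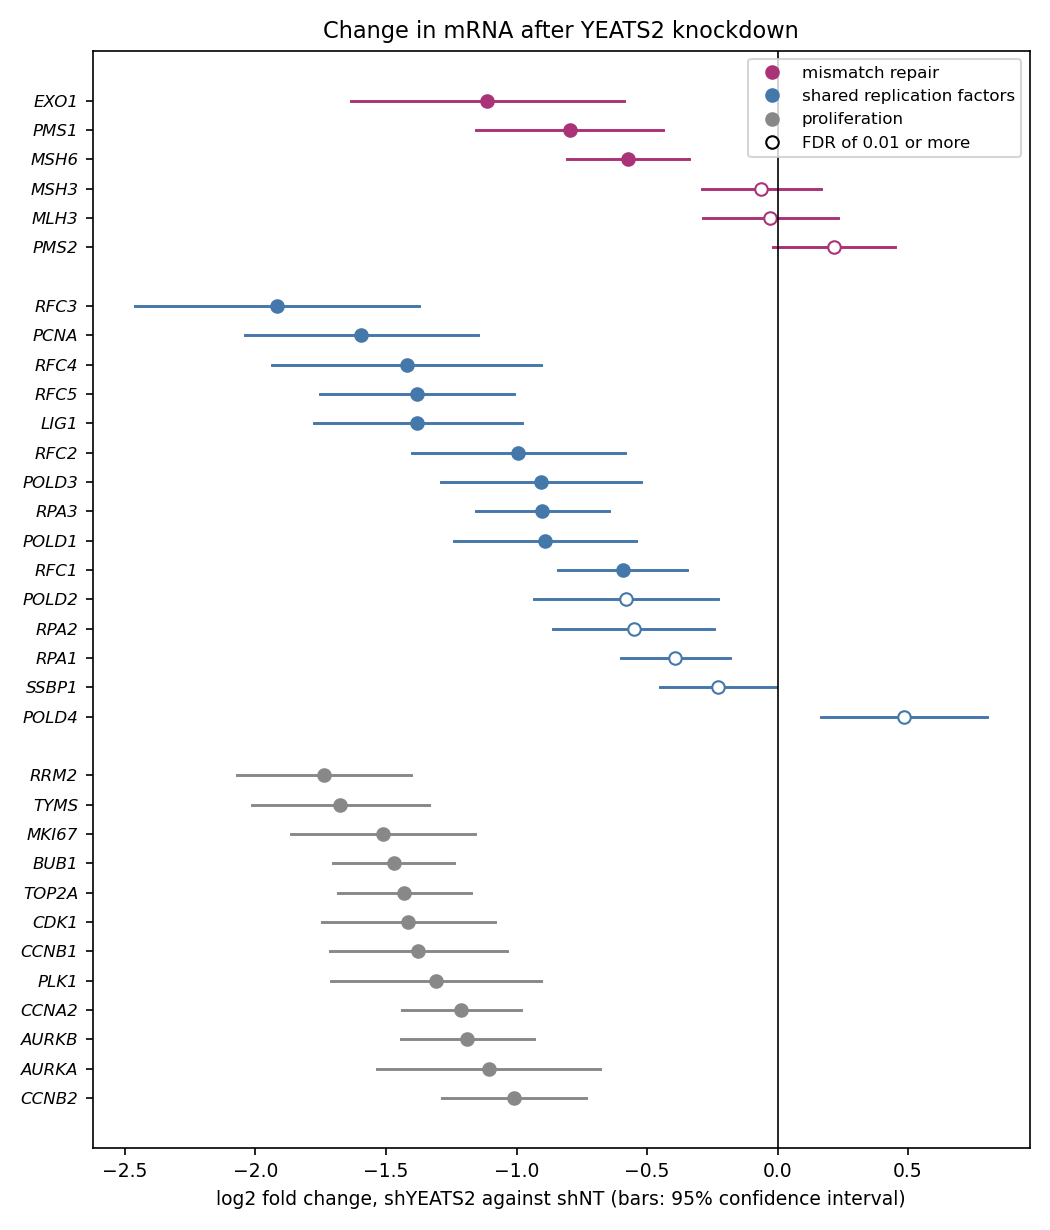
Log2 fold change of shYEATS2 against shNT (horizontal axis) with its 95% confidence interval for the 6 mismatch repair genes, 15 shared replication factors and 12 proliferation genes, where filled points have an FDR under 0.01. The intervals of MSH3, MLH3 and PMS2 cross 0, and all 12 proliferation genes lie between -1.74 and -1.01.

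Genes of dividing cells were lower in the same libraries. All 12 genes of a proliferation list (MKI67, TOP2A, CCNA2, CCNB1, CCNB2, CDK1, BUB1, AURKA, AURKB, PLK1, TYMS and RRM2) fell, against 12.5% of all genes called lower. The median log2 fold change of the list was -1.40. RRM2, a subunit of ribonucleotide reductase, fell the furthest (log2 fold change -1.74), with scaled counts of 17692 and 18249 in the controls and 6099 and 4679 in the knockdown. CCNB2, a mitotic cyclin, fell the least (-1.01). EXO1 (-1.11) lay within the range of these 12 genes, and the other 5 mismatch repair genes lay above it. The part of proliferation in the changes of MSH6, PMS1 and EXO1 was not tested.

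PMS1 and PMS2 each start head to head with another protein-coding gene of the table, transcribed the other way, and the pairs differed in how their members moved. ORMDL1, a regulator of sphingolipid synthesis, starts 111 bases from PMS1, and the transcripts are separate. ORMDL1 was read at 1929 and 1763 scaled counts in the controls and at 2578 and 2612 in the knockdown. It rose by 0.49 on the log2 scale (SE 0.096, FDR 0.00712), while PMS1 fell. The rise of ORMDL1 was not called without shNT replicate 1 (0.55), shNT replicate 2 (0.43) or shYEATS2 replicate 2 (0.48). The PMS1 to ORMDL1 ratio was 0.499 and 0.631 in the controls and 0.259 and 0.202 in the knockdown, a difference of -1.29 on the log2 scale (SDs 0.24 and 0.25).

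AIMP2, a scaffold protein of the multi-tRNA synthetase complex, starts 223 bases from PMS2, and the transcripts are separate. It was read at 1928 and 1792 scaled counts in the controls and at 1724 and 1583 in the knockdown. Its log2 fold change was -0.17 (95% confidence interval -0.41 to 0.07, FDR 0.196), and neither gene of the pair passed the test. The PMS2 to AIMP2 ratio was 0.562 and 0.613 in the controls and 0.750 and 0.786 in the knockdown, higher by 0.39 on the log2 scale (SDs 0.089 and 0.048). For both head-to-head ratios, as for the other 3 ratios, the groups did not overlap, while 2590 of the 12676 single genes did. The two-sided exact permutation p was 0.333 for each ratio, also after Benjamini-Hochberg adjustment over the 5 ratios. Of the 2 partners, 1 was called, against 25.3% of all genes called in either direction.

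**Figure D3:**
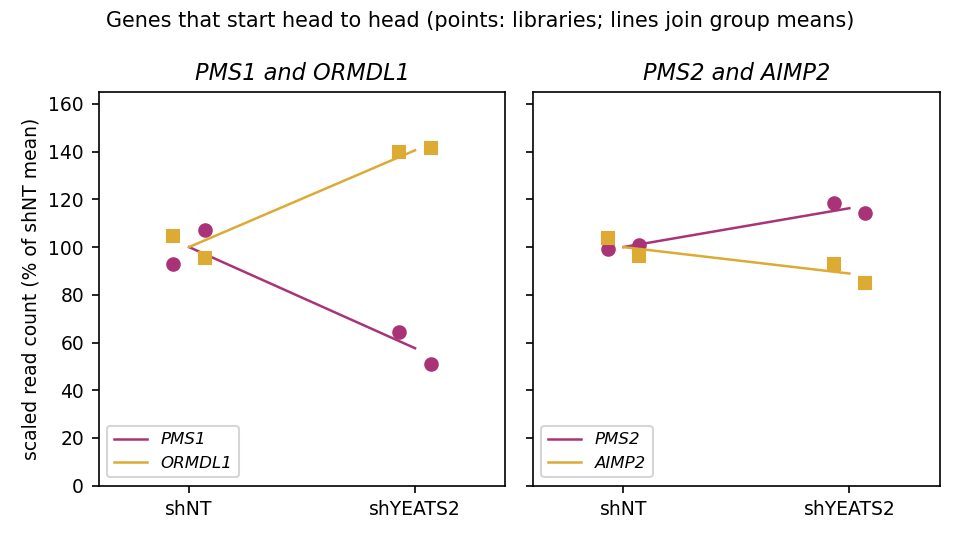
Scaled read counts as a percentage of the gene's mean in the control libraries (vertical axis) for PMS1 and PMS2 (circles) and the genes that start head to head with them (squares), where points are libraries and lines join group means. PMS1 fell while ORMDL1 rose, and PMS2 lay higher and AIMP2 lower in the knockdown without passing the test.

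For each member that fell, the 2 genes with the most similar profile over the 4 libraries were found by the distance between centred log2 values, among only the genes whose mean level lay within 2-fold of the member's (2270 for MSH6, 4230 for PMS1 and 4640 for EXO1). For MSH6, these were NUP62, a nuclear pore protein (distance 0.023), and DR1, a repressor that binds the TATA-binding protein (0.035). For PMS1, they were CCDC18 (0.037) and KLHL17 (0.040), and for EXO1 RBL1, a pocket protein that binds E2F4 (0.089), and ZNF268 (0.095). With 4 libraries in 2 groups, the distance reflects the size of the change and the order of the replicates.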

How the data were processed

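RNA-seq of 4 H1299 libraries was analysed, and the ChIP-seq samples of the series were not analysed here. Per the study's methods, the authors aligned reads with the RNA-Seq unified mapper (hg19) and counted them with HTSeq at default settings, and the submitters' processing notes give HTSeq 0.6.1p1, hg19 and, among aligners, TopHat2 2.0.10, so which aligner made the table is not settled. The authors deposited whole-number read counts per gene, without normalization. The library kit does not mark strand, while HTSeq's default counts a read only on its gene's strand. The effect of this setting on the counts was not tested. The table also holds the authors' own comparison (log2 fold change, p-value and FDR columns), which was not used. Genes with at least 10 reads in 2 libraries were tested, which all 12676 met, with edgeR 4.0.16 in R 4.3.3 (TMM, quasi-likelihood test, Benjamini-Hochberg adjustment, FDR under 0.01, no replicate block). Log2 fold changes had standard errors with a median of 0.123. Alternatives were DESeq2 1.42.0, limma-voom (limma 3.58.1), exactTest, other scalings and filters, an FDR under 0.05, a replicate block and each library left out. Gene positions and transcript lengths came from GENCODE on GRCh37, with 98.3% of identifiers matched. The named genes are the members, the fixed lists, the head-to-head partners and, for each called member, the 2 genes nearest in profile. FBXO11 was added after its values were seen, for its shared exon bases. The members, lists and sequence words were chosen with earlier results of these data known. Some genes of the pathway and of the lists are not reported here. The tests were also run on simulated counts in which few genes changed, up and down alike, with the same spread set for all genes. That run does not show how they behave under changes as broad as those here.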

Additional observations from a re-analysis of the deposited data

How the results depend on the processing

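The number of mismatch repair genes called lower was 3 under every scaling, test, filter and threshold tried except total counts in the quasi-likelihood test, where it was 2 (3 with total counts in exactTest), and it ranged from 1 to 3 when a library was left out, with the lone library of a group assumed to vary like the other group. Among the 15 alternatives, an FDR under 0.05 and no filter left the fit unchanged, so log2 fold changes could not differ there. The log2 fold changes of MSH6 (-0.64 to -0.45), PMS1 (-0.97 to -0.63), EXO1 (-1.49 to -0.81) and PMS2 (0.19 to 0.34) kept their sign under all 15 alternatives. MSH3 and MLH3 did not: with total counts, MSH3 was at 0.0575 by the quasi-likelihood test and 0.0575 by exactTest and MLH3 at 0.0925 and 0.0924, and with a library left out MLH3 ranged from -0.106 to 0.0505, the latter without shYEATS2 replicate 2. With total counts, the median over all genes was 0.12 on the log2 scale, so both lie below that median. The number of shared factors called higher was 1 (POLD4) with exactTest under TMM or total counts, with the replicate block and at an FDR under 0.05. The number of head-to-head partners called ranged from 0 to 1 with a library left out. The labels give both groups replicates 1 and 2 without saying that a number marks a shared day or infection, and the deviations of same-numbered libraries correlated at 0.40 over genes. With that replicate block, 3 members and 13 shared factors were called lower, 1 partner was called and YEATS2 fell by 2.68. The 2 libraries a group limit the precision, and genes under the listing limit of 100 reads were not analysed here.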
